A study of Mus musculus with 24 samples.

Results

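Genes that mark thalamic neurons were followed in libraries made from dissected hippocampus (HC). They are 9 genes chosen by name, *Tcf7l2*, *Lef1*, *Gbx2*, *Prkcd*, *Rgs16*, *Ramp3*, *Slc17a6*, *Synpo2* and *Tnnt1*, out of 25793 gene symbols in each count table, and all 9 were found there. The study sequenced RNA from HC and cerebellum (CB) of 16GsoT/T and wild-type (WT) mice at P14 and P35, with 3 libraries in each of 8 groups, 24 in all. 16GsoT/T mice are homozygous for one reciprocal translocation between chromosomes 5 and 8, so every mutant carries the same rearrangement. The labels give a C57BL/6 background for all mice, and most WT names, those of HC included, add the cross B6C3. Per the paper, mice of every genotype studied had this B6C3 background, a cross of C57BL/6 with C3H/He. Most library names mark males, and the paper states that its expression analyses used males. No drug, transgene or Cre was used. No label names pooled animals or describes how the dissections were made, and p-values measure the spread between the 3 libraries of a group, which may be technical in part.

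The thalamus lies directly beneath the hippocampus, and a dissection of one can carry cells of the other. Thalamic relay neurons send glutamatergic axons to the neocortex and load their vesicles with the transporter VGLUT2, the product of *Slc17a6*, whereas hippocampal pyramidal and granule cells mainly use VGLUT1 from *Slc17a7*. Relay neurons also keep the transcription factor TCF7L2 after birth, together with a set of signalling genes that includes *Prkcd* and *Rgs16*. None of these genes is found in the thalamus alone. Habenular neurons, some hippocampal interneurons, blood vessels and Purkinje cells of CB express one or more of them. In bulk RNA, fewer cells of a type and less RNA per cell cannot be told apart, so a level below is a level of RNA in the whole piece of tissue.

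HC libraries held 10572358 to 13245150 reads on genes at P14 and 2563968 to 4127478 at P35, and CB libraries held 22893603 to 40564789 and 5140843 to 7974640. Levels are counts-per-million values (CPM), scaled by the TMM method over the 12 libraries of a region. Markers matched the labelled tissue. Summed over 11 genes of hippocampal neurons, HC libraries had 677 to 1016 CPM and CB libraries 106 to 156 CPM. Summed over 8 genes of cerebellar neurons, CB libraries had 5493 to 8121 CPM and HC libraries 26.8 to 204 CPM. The 204 CPM belonged to B10, a P35 16GsoT/T library, while the other 11 HC libraries had at most 72.7 CPM. In P14 HC each genotype had its own lane code, and the effect of lane cannot be told apart from that of genotype. At P35 the libraries B10, B11, B12 (16GsoT/T) and N10 (WT) had consecutive library numbers and a single index, while the WT libraries W481 and W483 had later numbers and 2 indices.

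The DNA before the start site is shown for the 3 signalling genes among the members. Its part in their levels was not tested. These are the 250 bases upstream of the first start site listed by RefSeq for each gene, in build GRCm38.p6, written 5′ to 3′ on the strand of the gene. Capitals mark GC boxes, GGGCGG or its reverse complement CCGCCC, and both GC boxes of *Rgs16* share a base.
Prkcd (chr14:30626209-30626458, minus strand): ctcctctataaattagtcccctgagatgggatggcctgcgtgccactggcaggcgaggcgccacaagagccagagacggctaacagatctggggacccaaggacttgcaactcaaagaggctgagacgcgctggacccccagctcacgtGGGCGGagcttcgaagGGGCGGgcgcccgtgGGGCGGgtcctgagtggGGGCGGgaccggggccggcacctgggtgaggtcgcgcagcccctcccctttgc
Ramp3 (chr11:6658283-6658532, plus strand): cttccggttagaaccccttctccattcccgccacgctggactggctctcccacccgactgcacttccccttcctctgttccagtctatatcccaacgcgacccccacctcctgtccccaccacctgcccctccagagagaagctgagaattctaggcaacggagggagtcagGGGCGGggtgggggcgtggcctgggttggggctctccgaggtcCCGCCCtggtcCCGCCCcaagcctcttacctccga
Rgs16 (chr1:153740103-153740352, plus strand): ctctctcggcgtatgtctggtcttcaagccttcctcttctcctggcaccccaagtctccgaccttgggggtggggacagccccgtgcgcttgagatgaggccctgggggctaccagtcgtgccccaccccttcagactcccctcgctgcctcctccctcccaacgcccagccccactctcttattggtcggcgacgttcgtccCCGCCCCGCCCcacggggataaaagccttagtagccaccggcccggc

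Across the genes, RefSeq lists 15 such promoters, with at least 1 for each of the 9. A GC box on either strand was present in 11 of 15, against 32.7% of 32851 mouse promoters of that length. A TATA box (TATAAA, either strand) was present in 5 of 15, against 12.4% of all. The letters CTTTGAT, one form of the site bound by TCF and LEF proteins, were in 0 of 15 and in 3.21% of all promoters, and the cAMP response element TGACGTCA was in 0 of 15 and in 1.55% of all. Several promoters belong to the same gene, and the first 2 of *Lef1* overlap and hold the same GC box, so the 15 are not independent. The shares were not matched for GC content. The promoter before the first *Prkcd* start held 4 GC boxes, that of *Ramp3* 3 and that of *Rgs16* 2.

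By group mean, *Prkcd* was the most abundant of the 9 members in each of the 4 HC groups, followed by *Slc17a6*. *Prkcd* encodes protein kinase C delta, a kinase activated by diacylglycerol. The gene lies at chr14:31408542-31439396 on the minus strand (NCBIM37, GENCODE vM1). Its level in P14 HC was 36.8, 23.9 and 36.9 CPM in the WT libraries N4, N5 and N6 and 32.7, 25.4 and 40.7 CPM in the mutants A13, A14 and A18. At P35 it was 117, 43.6 and 37.0 CPM in WT (N10, W481, W483) and 34.8, 27.6 and 31.8 CPM in the mutants (B10, B11, B12). The P14 groups overlapped. At P35 all 3 WT libraries lay above the mutants, and N10 stood far above all other HC libraries.

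*Ramp3* encodes a membrane protein that pairs with calcitonin-family receptors such as the product of *Calcrl* and sets which peptide they bind. It lies at chr11:6558524-6577478 on the plus strand. Its P14 levels were 6.44, 4.51 and 17.4 CPM in WT and 10.1, 8.72 and 19.1 CPM in the mutants, in the library order used for *Prkcd*. At P35 they were 32.2, 3.42 and 3.89 CPM in WT and 9.43, 6.22 and 9.48 CPM in the mutants. N6 and A18 were the high libraries at P14 and N10 at P35, and the mutants at P35 lay between N10 and the other WT libraries.

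*Rgs16*, at chr1:155587479-155592598 on the plus strand, encodes a protein that speeds the hydrolysis of GTP by G protein alpha subunits and so shortens signalling. It had 7.98, 7.58 and 10.01 CPM in P14 WT and 8.80, 7.63 and 9.21 CPM in the P14 mutants, a narrow range. At P35 it had 30.7, 6.57 and 8.62 CPM in WT and 8.22, 3.89 and 10.3 CPM in the mutants. N10 was the 1 library above 10.3 CPM.

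*Slc17a6*, at chr7:58877200-58926495 on the plus strand, had 27.98, 26.4 and 37.4 CPM in P14 WT and 18.97, 20.3 and 39.5 CPM in the P14 mutants. Its P35 levels were 45.2, 19.2 and 10.02 CPM in WT and 12.1, 9.33 and 18.1 CPM in the mutants. Again N6 and A18 were highest at P14 and N10 at P35. Per kilobase of exon, *Slc17a6* stood at 7.08 ± 1.38 CPM per kb in P14 HC WT (SD, n = 3) and its relative *Slc17a7* at 574 ± 16.1 CPM per kb (SD, n = 3), so nearly all vesicular glutamate transporter RNA of these pieces was *Slc17a7*.

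The transcription factors were rarer than *Prkcd* and *Slc17a6*. TCF7L2 and LEF1 bind DNA through a HMG box and recruit beta-catenin when the Wnt pathway is active. *Tcf7l2* lies at chr19:55816300-56008144 on the plus strand. It had 7.98, 6.23 and 8.19 CPM in P14 WT and 6.24, 6.85 and 16.0 CPM in the P14 mutants. At P35 it had 20.4, 2.63 and 3.34 CPM in WT and 8.70, 3.50 and 7.53 CPM in the mutants. A18 was the highest P14 library and N10 the highest at P35, from 80 reads against 10 in W481 and 12 in W483.

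*Lef1*, at chr3:130813389-130927274 on the plus strand, ranged from 2.40 to 4.72 CPM over the 6 P14 HC libraries. At P35 it had 6.39, 3.42 and 1.67 CPM in WT and 2.42, 0.777 and 3.90 CPM in the mutants. These P35 values rest on 2 to 25 reads per library. *Gbx2*, at chr1:91824537-91829865 on the minus strand, encodes a homeodomain factor needed to form the thalamus before birth. It had 2 to 6 reads in each P14 HC library and 0 to 2 reads in each P35 HC library. It was at 0 reads in W481, B10 and B11, which a count of 3 reads would still allow, and no fold is given for it at P35.

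*Synpo2* and *Tnnt1* encode proteins better known from muscle, an actin-binding protein of the synaptopodin family and the slow skeletal form of troponin T. *Synpo2*, at chr3:122779437-122939067 on the minus strand, ranged from 2.02 to 4.49 CPM over the 6 P14 HC libraries. At P35 it had 14.1, 3.15 and 3.34 CPM in WT and 1.69, 2.33 and 6.14 CPM in the mutants. N10 was again highest, with 55 reads, and B12 followed with 22.

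*Tnnt1*, at chr7:4456172-4467984 on the minus strand, had 1.92, 1.17 and 1.64 CPM in P14 WT and 0.640, 1.012 and 0.974 CPM in the P14 mutants. At P35 it had 7.15, 0.525 and 0.835 CPM in WT and 0.484, 1.17 and 1.67 CPM in the mutants. N10 held 28 reads of *Tnnt1*, against 2 to 6 reads in each other P35 HC library. Smooth muscle genes did not move with it. Summed over 5 such genes, HC libraries of P35 WT ranged from 9.96 to 69.3 CPM, and the median ratio of N10 to the other 5 P35 HC libraries was 0.299 over the 3 of them with at least 60 reads.

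**Figure D1:**
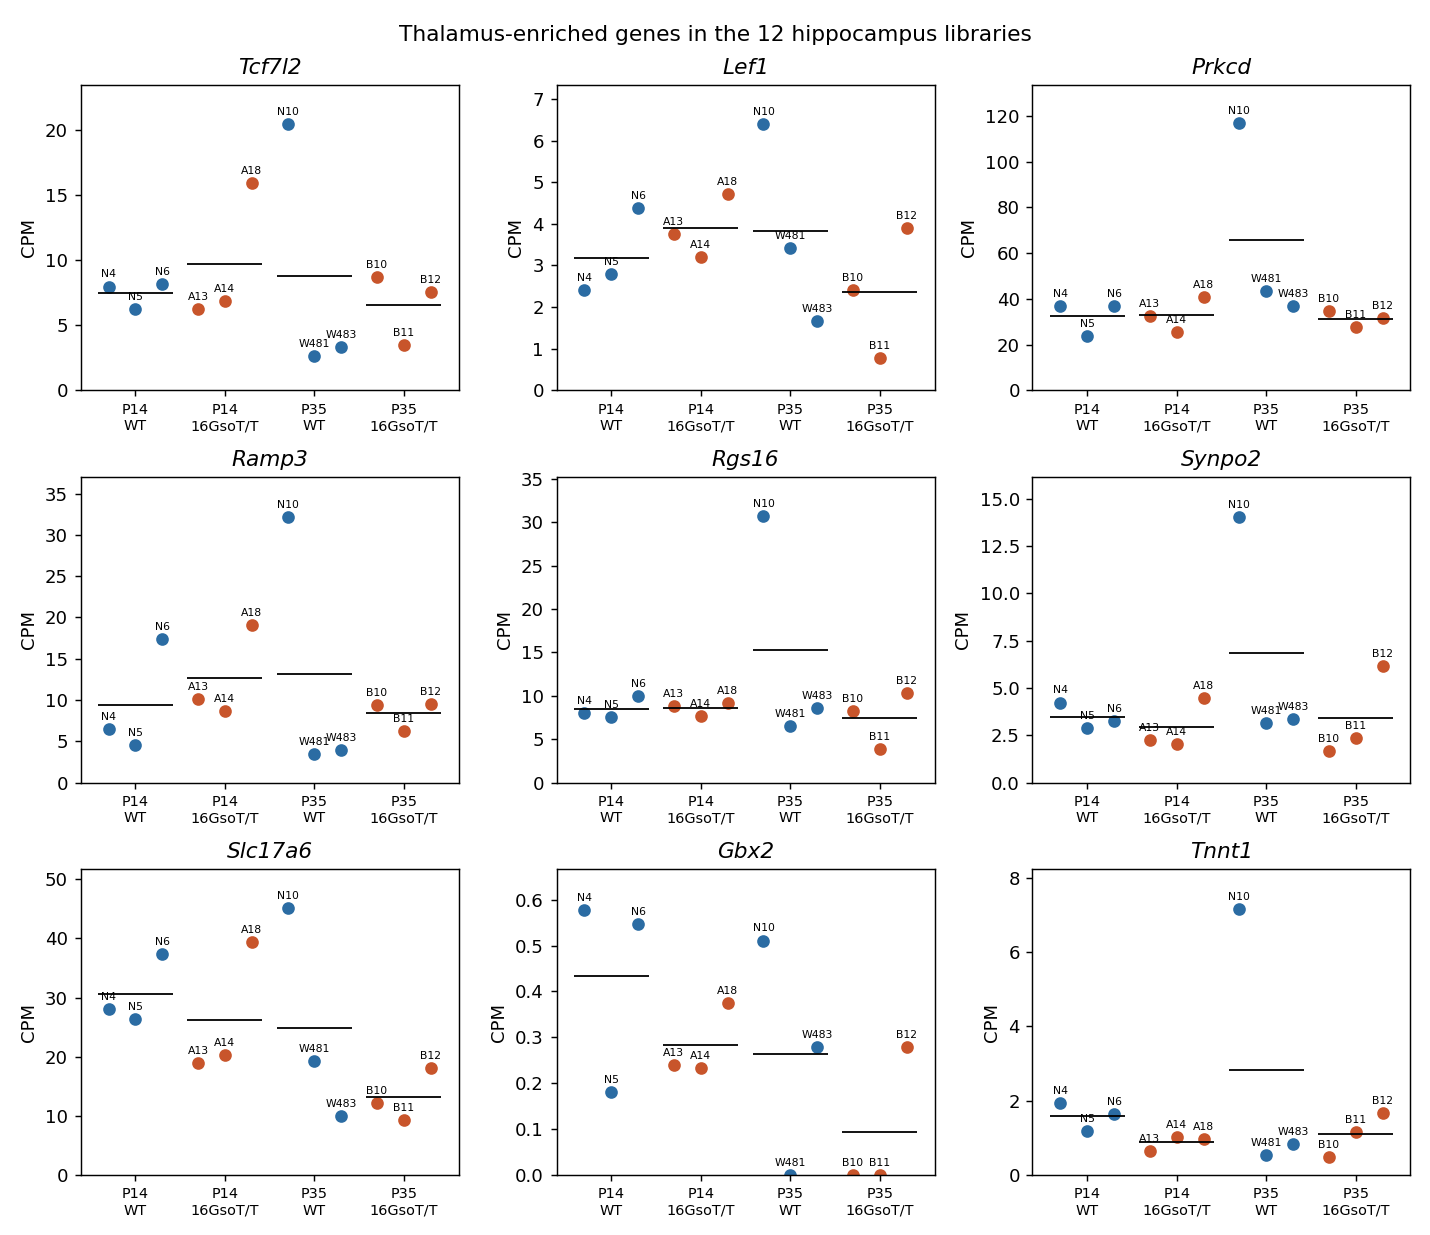
Level of each of the 9 genes (y axis, CPM, linear from 0) in the 12 HC libraries, grouped on the x axis by age and genotype; each point is one labelled library (blue WT, orange 16GsoT/T) and the black line is the mean of 3. N10 is the highest P35 library in all 9 panels, with *Prkcd* at 117 CPM against 27.6 to 43.6 CPM in the other P35 libraries.

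Within P35 HC, N10 was the highest of 6 libraries for 9 of 9 genes. Of these, 7 had at least 60 reads over the 6 libraries, and N10 was at least 2-fold above the mean of the other 5 in 7 of 7, with a median ratio of 3.98. Over all 13233 genes with as many reads, 0.514% were at least 2-fold higher in N10. Ratios for the 7 were 4.96 for *Ramp3*, 4.22 for *Synpo2*, 4.07 for *Rgs16*, 3.98 for *Tcf7l2*, 3.34 for *Prkcd*, 3.29 for *Slc17a6* and 2.62 for *Lef1*. Ordered by that ratio, all 7 were among the first 28 of the 13233 genes. The 60 reads included those of N10, which held 55 reads of *Synpo2* and 25 of *Lef1*. Neither gene would have reached 60 reads without N10, so the filter favoured genes high in that library. The genes were also named with earlier results of these data known, so these counts and positions describe the library and are no test.

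N10 was also set against the mean of the 2 WT libraries of its own group. These ratios were 6.85 for *Tcf7l2*, 8.81 for *Ramp3*, 4.04 for *Rgs16*, 4.33 for *Synpo2*, 3.10 for *Slc17a6*, 2.90 for *Prkcd* and 2.51 for *Lef1*. W481 and W483 were the 2 lowest of the 12 HC libraries for *Ramp3* and for *Tcf7l2*. Since W481 and W483 differ from N10 in library number and index, animal, dissection and library preparation cannot be told apart between them. B10, B11 and B12 share the library numbers and index type of N10 and lay below it for every one of the 9 genes.

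Summed over the 9 genes, N10 had 273 CPM. W481 and W483 had 82.5 and 69.0 CPM, and B10, B11 and B12 had 77.8, 54.8 and 89.2 CPM. At P14 the sums were 96.3, 75.7 and 120 CPM in N4, N5 and N6 and 83.6, 75.4 and 135 CPM in A13, A14 and A18. Outside N10 the 11 HC libraries thus spanned 54.8 to 135 CPM, and the mean of P35 WT was 142 ± 114 CPM (SD, n = 3) against 74.0 ± 17.6 CPM (SD, n = 3) in the mutants of that age. The P14 groups had nearly equal sums, at 97.2 ± 22.0 CPM in WT (SD, n = 3) and 98.0 ± 32.3 CPM in the mutants (SD, n = 3).

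**Figure D2:**
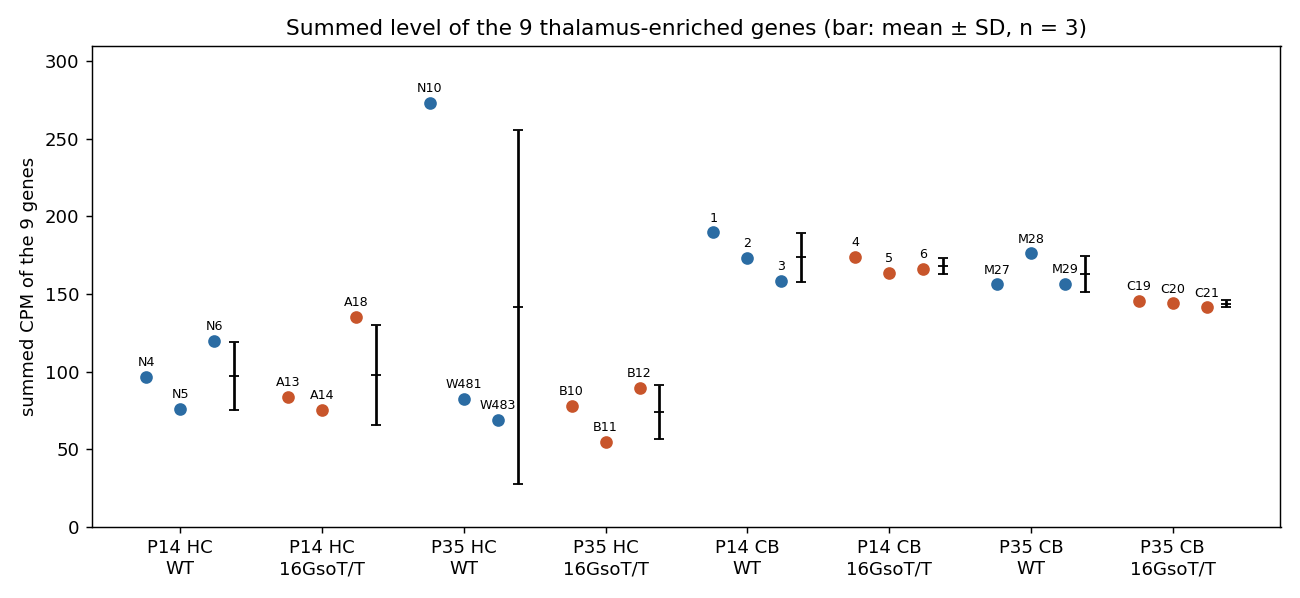
Sum over the 9 genes (y axis, CPM, linear from 0) in all 24 libraries by region, age and genotype; points are labelled libraries (blue WT, orange 16GsoT/T), and the black bar beside each group is the mean ± SD of 3. N10 stands at 273 CPM, the other 11 HC libraries at 54.8 to 135 CPM and the 12 CB libraries at 141 to 190 CPM.

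A18 and N6 carried most of the genes at higher levels at P14, to a smaller degree. A18 was the highest of the 6 P14 HC libraries for 6 of 9 genes and at least 2-fold above the mean of the other 5 for 2 of the 8 with at least 60 reads, *Tcf7l2* and *Ramp3* (0.67% of all 15222 genes). Its median ratio over the 8 was 1.47. Within its own group A18 exceeded the mean of A13 and A14 by 2.44 times for *Tcf7l2*, 2.11 times for *Synpo2*, 2.03 times for *Ramp3* and 2.01 times for *Slc17a6*, and by 1.40 times for *Prkcd*. N6 was the highest WT library for 6 of 9 genes. *Rgs16* and *Tnnt1* were less raised in A18, at 1.12 and 1.18 times the mean of A13 and A14. Genes of other regions also moved with these libraries. A18 was highest for 5 of 8 habenula genes, of which *Pou4f1*, *Chrnb4* and *Gng8* had 6 or 7 reads in it. Among the 5 with at least 60 reads it was highest for 2, with a median ratio to the other 5 libraries of 1.31. The habenula sum was 36.9 CPM in A18 and 38.3 CPM in N6. N6 was highest for 4 of 7 neocortical genes, with a median ratio of 1.39 and a sum of 318 CPM against 185 to 240 CPM in the other 5. Their part in the thalamic values was not tested.

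A further 12 genes enriched in thalamus, other than the 9, were read in the same way. In N10 they were highest among the 6 P35 HC libraries for 10 of 12, and of the 10 with at least 60 reads 3 were at least 2-fold above the mean of the other 5, with a median ratio of 1.73. The 3 were *Zic1*, a zinc finger factor, with a ratio of 2.44, *Amotl1*, an angiomotin-like protein of cell junctions, with 2.39, and *Foxp2*, a forkhead factor, with 2.09. *Ntng1*, an axonal netrin-G protein of thalamic neurons, had 49.8 CPM in N10 and 24.9 to 29.4 CPM in the other 5. *Cacna1g*, the T-type calcium channel behind burst firing of relay neurons, had 115 CPM in N10 and 53.9 to 75.3 CPM in the others. *Adarb1*, an RNA-editing enzyme, had 286 CPM in N10 and 184 to 211 CPM in the others. *Ptpn3*, *Lhx9* and *Rora* differed little, with ratios of 1.19, 1.07 and 1.05, and N10 was not highest for *Lhx9* or *Rora*. B10, which was high for cerebellar genes, had 31.2 CPM of *Zic1*, against 43.9 CPM in N10. Summed over the 12, N10 had 768 CPM and the other P35 HC libraries 462 to 501 CPM. In P14 HC, A18 had 541 CPM and the other 5 libraries 448 to 501 CPM. CB libraries had 1651 to 1978 CPM over the same 12 genes, so this list does not mark thalamus alone.

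Genes of other regions stood out less in N10. Of 8 habenula genes, N10 was highest for 1, *Tac2*, which encodes neurokinin B, at 7.41 CPM against 1.69 to 4.99 CPM. *Gpr151*, a receptor typical of habenular neurons, had 5 reads in N10 and 1 to 7 reads in the others. The sum of the habenula genes in N10, 23.8 CPM, lay within the 19.2 to 29.1 CPM of the other P35 HC libraries. The median ratio over the 2 with at least 60 reads, those of N10 included, was 1.56. Median ratios of N10 to the other 5 were 0.917 for hippocampal genes, 1.11 for striatal genes, 0.97 for neocortical genes, 0.683 for cerebellar genes and 0.85 for oligodendrocyte genes. For cerebellar genes the other 5 include B10, at a sum of 204 CPM. N10, at 43.9 CPM, lay above B11, B12, W481 and W483, at 26.8 to 37.3 CPM. Among the striatal genes 1 of 8 was at least 2-fold higher in N10, *Drd2*, which encodes the D2 dopamine receptor, at 7.15 CPM against a mean of 2.04 CPM in the other 5.

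Choroid plexus genes were low in the libraries with the highest thalamic sums. The choroid plexus is the secretory epithelium of the ventricles, which touches the hippocampus, and *Ttr*, its transthyretin, is among the 9 genes listed for it. In N10 its median ratio to the other 5 libraries was 0.106. Summed over these 9 genes, the P35 WT libraries N10, W481 and W483 had 94.0, 83.8 and 82.9 CPM and B10, B11 and B12 had 1800, 361 and 1426 CPM. W481 and W483 were thus low for both lists, and B12, the second highest P35 library for the thalamic sum, was high for both. At P14 the libraries highest for the thalamic genes, A18 and N6, had the lowest choroid plexus sums, 93.7 and 111 CPM, against 438 to 1828 CPM in the other 4.

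**Figure D3:**
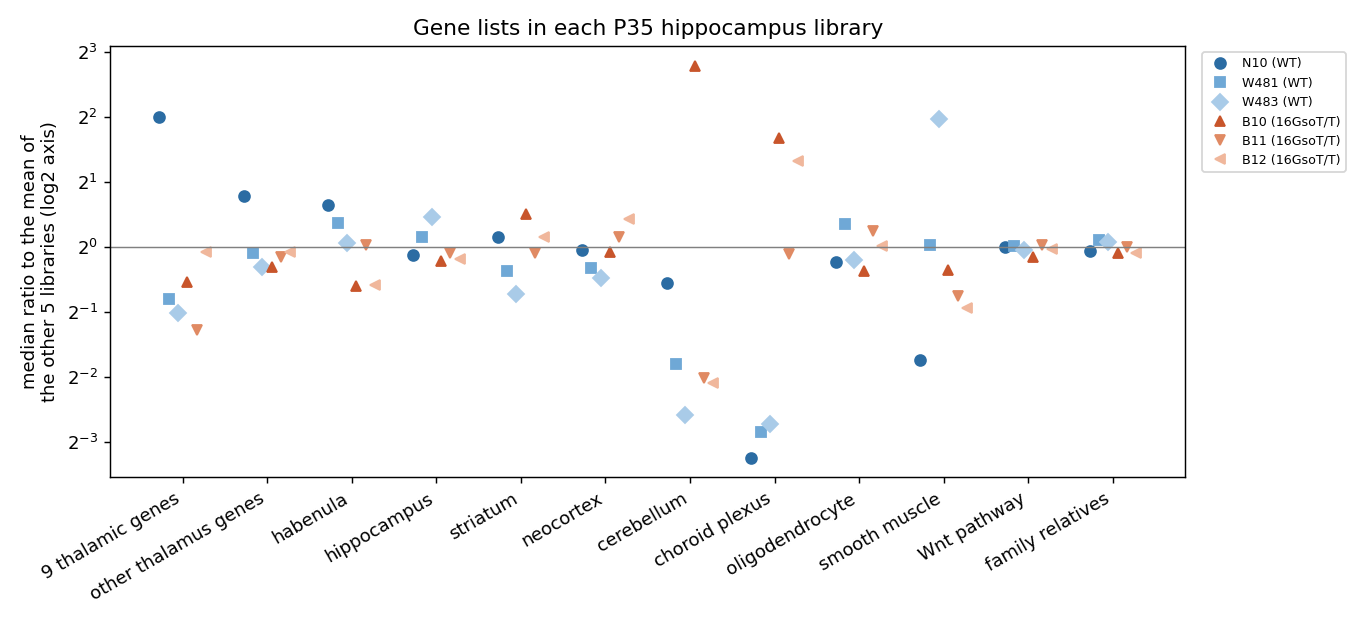
Median ratio of each P35 HC library to the mean of the other 5 (y axis, log2 axis) over the genes of each list with at least 60 reads; points are libraries (blue shades WT, orange shades 16GsoT/T) and the grey line marks a ratio of 1. For the 9 thalamic genes N10 lies at 3.98 and the other libraries below 1, whereas cerebellar genes are high in B10 (6.90) and choroid plexus genes in B10 (3.20) and B12 (2.504).

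The question of the genotype comparison was which genes differ between 16GsoT/T and WT within HC at each age. In P14 HC, 0 of the 8 thalamic genes tested passed an adjusted p of 0.05 in edgeR's quasi-likelihood test, where 0.814% of 15227 genes did. DESeq2 also called 0. Of the 8, 5 had higher and 3 lower means in the mutants, with a median log2 fold change of 0.01, the same over all genes being 0.00. *Tnnt1* was the 1 gene with an unadjusted p under 0.05, at a log2 fold change of -0.84 (SE 0.324, adjusted p = 0.231 in edgeR), and its groups did not overlap. Over all genes tested, 17.5% had an unadjusted p under 0.05 in edgeR, and the share whose groups did not overlap was not counted. *Gbx2* was too low to be tested. *Ramp3* had 0.42 (SE 0.474) and *Tcf7l2* 0.38 (SE 0.343) on the log2 scale. Without A18, *Tcf7l2* stood at -0.20 and *Ramp3* at -0.02, and the 8 genes had 1 higher and 7 lower, with a median of -0.18. A18 was the highest library for *Tcf7l2* and *Ramp3*, so leaving it out had to lower both values, which are a description and no test. *Ramp3* then lay near 0, and with any 1 library left out it ranged from -0.020 to 1.21.

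In P35 HC, all 7 thalamic genes tested had lower means in 16GsoT/T, with a median log2 fold change of -0.90 (-0.01 over all genes), and 0 of 7 passed the adjusted p in edgeR, where 0.135% of 13343 genes did. DESeq2 called 0, with 1 at an unadjusted p under 0.05 against 2 in edgeR, where 8.84% of all genes had one. The largest difference was that of *Prkcd*, -1.07 (SE 0.329, adjusted p = 0.329 in edgeR), whose groups did not overlap. How many of all genes separate in this way was not counted. *Synpo2* had -1.02 (SE 0.588), *Rgs16* -0.997 (SE 0.487), *Slc17a6* -0.90 (SE 0.408), *Ramp3* -0.64 (SE 0.619), *Lef1* -0.63 (SE 0.534) and *Tcf7l2* -0.39 (SE 0.591). For these 6 the groups overlapped, since W481, W483 or both lay among the mutants or below them. *Gbx2* and *Tnnt1* were too low to be tested.

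These directions rested in part on N10. Without it, 4 of the 7 genes had higher means in the mutants and 3 lower, with a median log2 fold change of 0.01, and 0 passed the adjusted p where 1.02% of 13611 genes did. *Tcf7l2* then stood at 1.17 (SE 0.433, adjusted p = 0.240 in edgeR) and *Ramp3* at 1.20 (SE 0.355, adjusted p = 0.131 in edgeR), both above 0, while *Rgs16* and *Synpo2* stood at 0.01 and 0.06. *Prkcd* kept a negative value of -0.36 (SE 0.168, adjusted p = 0.366 in edgeR), *Slc17a6* -0.15 and *Lef1* -0.05. With N10 as the only WT library, which compares within one set of library numbers, all 7 were lower, with a median of -1.88, and 3 were called, *Prkcd*, *Ramp3* and *Slc17a6*, where 0.0715% of 13991 genes were. N10 is named here because it was highest for these genes, so that choice fixed the directions and calls of this fit, which are a description and no test. The fit with N10 alone also assumes that WT varies as the 3 mutants do. Leaving N10 out likewise had to raise the values of these genes, so that fit is a description too.

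**Figure D4:**
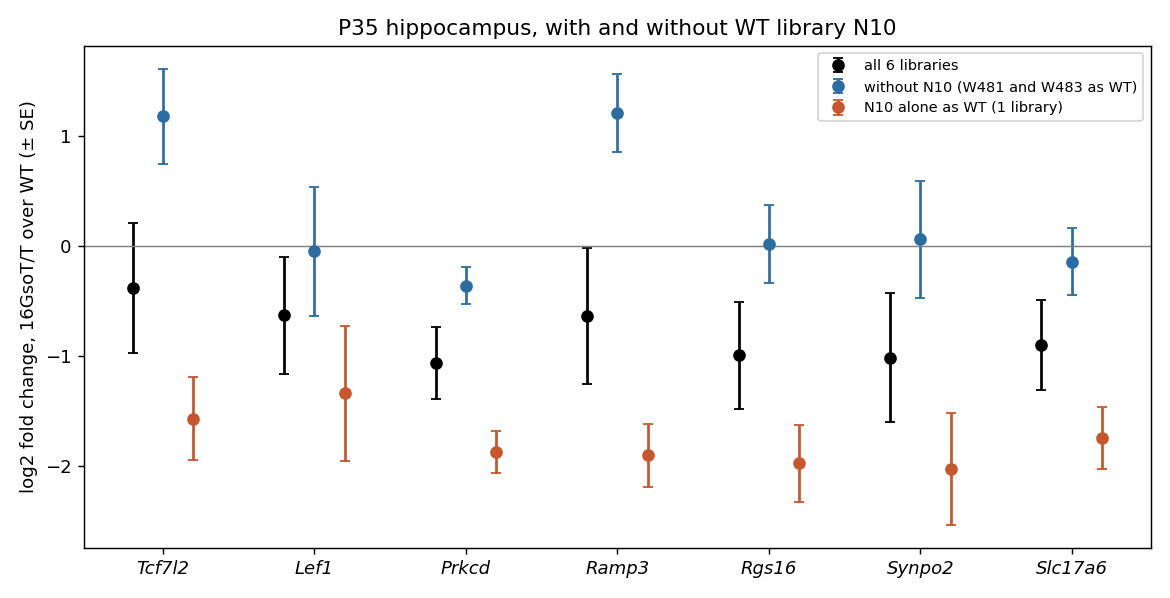
Log2 fold change of 16GsoT/T over WT in P35 HC (y axis, point ± SE) for the 7 thalamic genes tested (x axis), with all 6 libraries (black), without N10 (blue) and with N10 as the only WT library (orange). *Ramp3* moves from -0.64 to 1.20 without N10 and to -1.91 with N10 alone, and *Prkcd* from -1.07 to -0.36 and to -1.88.

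Choroid plexus genes also differed between genotypes in P35 HC. There 6 of 8 tested were called higher in 16GsoT/T, where 0.135% of 13343 genes were called in either direction. They were led by *Kcnj13* at a log2 fold change of 4.28, *Ttr* at 4.26, *Folr1* at 4.02 and *Slc4a5* at 3.93. In P35 CB, 8 of 9 were lower in the mutants and 2 of them were called, where 35.3% of 14004 genes were called. The choroid plexus sum also varied within single groups, from 93.7 to 1828 CPM in P14 HC mutants and from 22.6 to 2107 CPM in P35 CB WT. The 22.6 CPM belonged to M27, below the 141 to 383 CPM of the P35 CB mutants. The part of choroid plexus genes in the thalamic values was not tested. Of the 12 further thalamic genes, 3 of the 10 tested had higher means in the mutants and 7 lower in P35 HC, with a median of -0.32, and 0 were called by edgeR, with 3 at an unadjusted p under 0.05. In P14 HC, 8 of 12 were higher and 4 lower, with a median of 0.11, and 0 were called, with 1 at an unadjusted p under 0.05.

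Whether the difference between genotypes changed with age was tested as an interaction over the 12 HC libraries. All 8 thalamic genes tested had a lower value at P35 than at P14, with a median of -0.85 on the log2 scale, and 0 were called in edgeR, where 0.00666% of 15010 genes were. *Prkcd* was the 1 gene with an unadjusted p under 0.05, at -1.09 (SE 0.474, adjusted p = 0.410 in edgeR), where 11.4% of all genes had one. DESeq2 also called 0. Without N10, 6 of the 8 were higher and 2 lower, with a median of 0.20, and 0 were called, with 0 at an unadjusted p under 0.05. This comparison and that within P35 HC share their libraries, N10 included.

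Ordered by mean level for each of the 9 genes, the 4 HC groups gave 27 neighbouring pairs, and the ranges overlapped in all 27. Groups farther apart in that order did separate for some genes, as WT and mutants did for *Prkcd* at P35 and for *Tnnt1* at P14. *Slc17a6* ranged from 18.97 to 39.5 CPM in the P14 mutants and from 9.33 to 18.1 CPM in the P35 mutants, without overlap. Such separation was not counted over all genes. From P14 to P35 in HC of WT mice, 7 of 8 genes tested had a higher mean and 1 a lower one. *Prkcd* was the 1 called, at 1.05 (SE 0.324, adjusted p = 0.0283 in edgeR), where 25.5% of 15010 genes were called. Without N10, 1 of 8 had a higher mean at P35, and 0 were called, as without N5. Without W481, 2 were called, *Prkcd* and *Rgs16*. DESeq2 called 0, with 1 at an unadjusted p under 0.05, against 2 in edgeR, where 37.8% of all genes had one. Age and sequencing run cannot be told apart here.

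The levels were also set beside CB, which does not touch the thalamus. Library runs differed between the regions. In P14 WT mice, 5 of 8 genes were called, where 77.2% of 15791 genes were. HC had less *Slc17a6* (-1.39, SE 0.141, adjusted p = 6.9e-06 in edgeR), *Prkcd* (-0.81, SE 0.136), *Synpo2* (-0.71, SE 0.280) and *Tcf7l2* (-0.57, SE 0.165), and more *Tnnt1* (1.68, SE 0.336). The *Synpo2* call was lost without N5, N6 or either of the first 2 WT libraries of CB, and its groups overlapped. *Gbx2* was called without N5 and *Ramp3* without N6. In P35 WT mice, 5 of 7 genes were higher in HC and 2 lower, and 0 were called in edgeR, where 56% of 13886 genes were. Of the 7, 1 had an unadjusted p under 0.05 in edgeR, where 60.5% of all genes had one. DESeq2 called 1, *Tnnt1*. Without N10, 7 of 7 were lower in HC than in CB and 3 of them were called, *Prkcd*, *Ramp3* and *Rgs16*, where 55.4% of 14282 genes were. Without W481, *Tcf7l2* was called, and without W483, *Tcf7l2* and *Slc17a6*.

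CB of both genotypes expressed most of the genes, so they do not mark thalamus there. Summed over the 9, CB libraries had 141 to 190 CPM. In P14 CB, 0 of 8 genes tested were called in edgeR, where 0.506% of 15993 genes were. *Synpo2* and *Prkcd* were the 2 at an unadjusted p under 0.05, against 8.89% of all genes. *Synpo2* was 6.87, 6.60 and 3.38 CPM in WT and 2.56, 1.19 and 1.82 CPM in the mutants, a log2 fold change of -1.61 (SE 0.310, adjusted p = 0.0713 in edgeR). Its groups did not overlap, though the share of all genes without overlap was not counted. DESeq2 called it, as did edgeR without the third WT library or the first mutant library.

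In P35 CB, 4 of 8 genes were called, where 35.3% of 14004 genes were. *Prkcd* was 86.1, 103 and 91.5 CPM in WT and 67.2, 62.7 and 69.7 CPM in the mutants, a log2 fold change of -0.52 (SE 0.0819, adjusted p = 0.000451 in edgeR). *Synpo2* was 5.65, 5.62 and 5.55 CPM in WT and 2.93, 2.97 and 3.88 CPM in the mutants, a log2 fold change of -0.80 (SE 0.230, adjusted p = 0.0172 in edgeR). *Lef1* fell by 0.97 on the log2 scale (SE 0.324, adjusted p = 0.0336 in edgeR). In each of these 3 genes every WT library lay above every mutant, but the share of all genes that separate in this way was not counted. Over all genes tested in P35 CB, 45% had an unadjusted p under 0.05 in edgeR. *Prkcd* was called with any 1 library left out. *Lef1* was not called by DESeq2, without a low-count filter, or in 5 of the 6 fits with 1 library left out, all but that without M29. *Synpo2* was not called by DESeq2 or without M28 or C20.

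*Tnnt1* was called higher in P35 CB of 16GsoT/T. It had 12, 12 and 22 reads in the 16GsoT/T libraries and 1, 0 and 0 in WT, a ratio of 44.4 with a 95% interval of 7.59 to 1793 from counting error only (adjusted p = 0.000274 in edgeR). In P14 CB it had 10 to 27 reads in every library and the groups overlapped. The further members *Tcf7l2*, *Ramp3*, *Rgs16* and *Slc17a6* were not called in CB at either age with all libraries. *Slc17a6* had 34.4 CPM in C20, a P35 mutant, against 10.7 and 13.1 CPM in C19 and C21 and 17.96 to 20.15 CPM in WT, and it was called without C20.

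Genes from outside the set were ordered by how closely they followed it. Each gene's log2 CPM was centred within the 4 HC groups and correlated over the 12 libraries with the mean of the 9 centred and scaled members, for 12593 genes with a mean of at least 2 log2 CPM. The members themselves had correlations of 0.73 to 0.92 with the mean of the other members, and of 0.51 to 0.88 without N10 and B12, the libraries farthest from the median. The 10 closest other genes were *Chst10* (Pearson's r 0.961), *Pdp1* (0.953), *Zbtb40* (0.951), *Accn2* (0.951), *Fam53c* (0.947), *Foxp3* (0.944), *Elmo1* (0.939), *Rag1ap1* (0.938), *Scrt1* (0.929) and *Zfp27* (0.929). *Chst10* encodes a sulfotransferase, *Pdp1* a phosphatase of pyruvate dehydrogenase, *Accn2* an acid-sensing ion channel, *Foxp3* a forkhead factor of regulatory T cells and *Scrt1* a zinc finger factor of neurons. *Chst10* had 0.910 without N10 and B12. Over all genes the median r was 0.00 and 0.238% exceeded 0.9. The points share libraries and their depth, and the values are descriptions. Of the further thalamic genes, 10 were among the genes ordered, and they spread widely. *Foxp2* came 29th with 0.901, *Adarb1* 55th with 0.879, *Cacna1g* 155th with 0.835 and *Amotl1* 162nd with 0.830, the last falling to 0.553 without N10 and B12. *Zic1*, *Plekhg1*, *Ntng1*, *Ptpn3* and *Rora* had 0.37 to 0.51, and *Lhx9* had 0.02.

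The genes of the Wnt pathway and the relatives of the members did not follow this pattern in N10. The partners and targets of TCF7L2 and LEF1 were read as a list of 19 genes, among them *Ctnnb1*, which encodes beta-catenin, and *Axin2*, a target that restrains the pathway. In P14 HC 0 of 18 were called, with 9 higher and 9 lower, and 3 had an unadjusted p under 0.05. In P35 HC 0 of 16 were called, with 7 higher and 9 lower, and 1 had an unadjusted p under 0.05. The median ratio of N10 to the other P35 HC libraries was 0.993 over the 15 genes of this list with at least 60 reads and 0.953 over the 14 such genes among 21 relatives of the members. Among relatives in HC of P35 WT, *Prkcb*, the beta form of protein kinase C, had 213 ± 19.9 CPM per kb against 13.2 ± 8.88 CPM per kb for *Prkcd* (SD, n = 3 each). *Ramp1* had 19.8 ± 1.29 CPM per kb against 9.54 ± 11.9 CPM per kb for *Ramp3* (SD, n = 3 each), and *Rgs4* had 59.0 ± 14.7 CPM per kb against 6.53 ± 5.71 CPM per kb for *Rgs16* (SD, n = 3 each). The SD of *Ramp3* exceeded its mean, with N10 as the high library.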

How the data were processed

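RNA of HC and CB was sequenced at both ages, and samples were grouped by the region, age and genotype of their labels. The authors mapped reads with TopHat2 2.0.8 to NCBIM37 and counted reads per gene with HTSeq 0.6.1, per the submitters' processing notes, and deposited raw counts in one table per age. The annotation and strand option are not given in the sources used here. The paper's methods name a KAPA kit and the labels a TruSeq kit. No column of per-sample values was left out.

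In R 4.3.3, counts were tested by quasi-likelihood in edgeR 4.0.16, with TMM scaling and filterByExpr (minimum count 10, minimum total 15), with Benjamini-Hochberg adjustment over all genes tested and a threshold of 0.05. Genotypes were compared over the 6 libraries of one region and age, and the interaction and the ages over the 12 HC libraries. CPM per kb used the exon length of GENCODE vM1, which may differ from the annotation counted. Counting intervals are exact binomial at 95%. Where groups are said not to overlap, the share of all genes whose groups separate in this way was not counted. The scripts were tested on simulated data. Alternatives were DESeq2 1.42.0, its size factors, other filters, one fit of 12 libraries, N10 as the only WT library and each library left out in turn.

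The members and lists were chosen with earlier results of these data known. All 9 members are described. From other lists at most 4 genes called in HC with the largest change are named, besides relatives of members, genes that lead a count, and the 10 genes most like the members, chosen by correlation. *Nwd2*, *Lamp5* and *Syndig1l* were not found under those symbols.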

Additional observations from a re-analysis of the deposited data

How the results depend on the processing

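The depth of P35 HC, 2563968 to 4127478 reads, limits *Lef1*, *Gbx2*, *Tnnt1* and *Synpo2*, which had few reads per library. Of 95 recomputed counts of thalamic genes called, 77 were equal to the count with the main settings or within 1.5 times of it. That main count was 0 in P14 HC, P35 HC, P14 CB, the interaction and P35 WT HC against CB. For these, only counts that stayed 0 are among the 77. In P35 HC the count went from 0 to 1 without a low-count filter (*Prkcd*) and to 3 with N10 as the only WT library, and was 0 with any one library left out. In P14 CB it went from 0 to 1 with DESeq2 and to 1 without a filter (*Synpo2*), and was 0 to 1 over the fits with one library left out. In P35 CB it went from 4 to 2 with DESeq2 and to 2 with at least 10 counts in every library, and was 2 to 4 with one library left out (2 without M28, *Prkcd* and *Tnnt1*). In P35 WT HC against CB it went from 0 to 1 with DESeq2 and to 2 without a filter, and was 0 to 3 with one library left out (3 without N10, 2 without W483, 1 without W481). From P14 to P35 in WT HC it went from 1 to 0 with DESeq2 and was 0 to 2 with one library left out (0 without N10 or N5, 2 without W481). In P14 HC and the interaction the count was 0 under every alternative. In P14 WT HC against CB it changed under none of these by over 1.5 times. There *Synpo2* lost its call in 4 of the 6 fits with one library left out.

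Of 168 recomputed log2 fold changes of single genes in HC, 14 changed sign. In P14 HC *Rgs16* went from 0.00 to -0.0034 with DESeq2 and to -0.0031 with its size factors. With one library left out, the P14 ranges were -0.20 to 0.61 for *Tcf7l2*, -0.17 to 0.18 for *Prkcd*, -0.020 to 1.21 for *Ramp3* and -0.080 to 0.14 for *Rgs16*. The P35 ranges were -0.82 to 1.17 for *Tcf7l2*, -1.10 to 1.20 for *Ramp3*, -1.36 to 0.014 for *Rgs16* and -1.81 to 0.056 for *Synpo2*, with the upper end in each without N10. Leaving out N10 removes one of 3 WT libraries; the cause was not tested. No paired analysis was possible because the library names give no numbers shared between the groups compared.

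Over all genes, 124 were called in P14 HC, 397 with DESeq2, 47 in one fit of 12 libraries, and 13, 18, 21 and 33 without A14, N4, A13 and N5. In P35 HC 18 were called, 45 with DESeq2, 134 without a filter, 7 with at least 10 counts in every library, 1 in one fit of 12 libraries, and 6, 10, 40 and 139 without B12, W481, B11 and N10.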

Other observations

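Beside the thalamic genes, other genes were high in N10 and were picked after their values were seen. *Ecel1*, an endopeptidase-like gene of neurons, had 18.9 CPM in N10 and a mean of 3.14 CPM in the other 5 P35 HC libraries. *Grid2ip* had 8.69 against 1.47 CPM, *Agxt2l1* 16.9 against 2.91 CPM and *Rab37* 8.43 against 1.94 CPM. These 4 are not among the lists, and each stood above all other P35 HC libraries. In each case the values rest on 33 to 74 reads in N10.

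B10, a 16GsoT/T library of P35 HC, was the highest of the 6 for 8 of 8 cerebellar genes, with a median ratio of 6.90 to the mean of the other 5. For the thalamic genes its median ratio was 0.684. N4, a WT library of P14 HC, had 769 CPM summed over 9 striatal genes, against 157 to 189 CPM in the other 5 libraries of that age, while its thalamic sum of 96.3 CPM lay within their range.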
